A study of Bos taurus and Ovis aries and Capra hircus with 18 samples.

Results

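The genes described here are 9 genes of fat storage: the adipocyte hormone genes ADIPOQ and CFD, the lipid droplet genes PLIN1, PLIN4 and CIDEC, the fat import genes LPL and FABP4, and the fatty acid synthesis genes FASN and SCD. They were taken as a fixed list, 9 of the 13934 genes that could be matched between the 3 species measured. The cattle genes were named by their position, and the sheep and goat partners were found by exon structure and gene order. Bulk RNA sequencing covered brain and muscle of adult cattle (Bos taurus), sheep (Ovis aries) and goat (Capra hircus), with 3 libraries, lettered A, B and C, in each of the 6 groups. The labels give no brain region, muscle, breed, sex or exact age, and they do not say that the letters are separate animals, so p-values measure only the spread between these samples, which may be technical. All libraries were made from poly(A)-selected RNA of frozen tissue, and no treatment or genotype separates them.

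Fat is stored in adipocytes as triglyceride inside a droplet. Perilipin 1, encoded by PLIN1, coats the large droplet of the adipocyte, CIDEC fuses droplets, and adiponectin, encoded by ADIPOQ, is a hormone that adipocytes release. In meat animals adipocytes lie between muscle fibres, while the fibres themselves hold small droplets and take up fatty acids that lipoprotein lipase, encoded by LPL, frees from blood lipoproteins. In brain, fatty acid synthase (FASN) and stearoyl-CoA desaturase (SCD) make lipid for membranes and myelin.

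Library totals ran from 20730803 to 58514630 counts. The tissue labels fitted the marker genes: summed fast-fibre genes stood at 55300 to 177400 counts per 1000000 counts (CPM) in muscle and at most 22.7 in brain, and summed neuron genes at 1496 to 7106 CPM in brain and at most 9.23 in muscle. A pair of libraries stood apart from their group over all genes. Sheep brain C had a rank correlation over genes of 0.83 with brain A and 0.832 with brain B, which reached 0.989 with each other, and goat muscle C had 0.953 and 0.945 against 0.99 for A with B. Counts, and the values that they moved, are given with and without them. Levels below are CPM after scaling within a species by trimmed means (TMM), and folds between tissues are log2 of brain over muscle, so a negative value is higher in muscle.

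In cattle, 6 of the 9 genes were called higher in muscle and 2 higher in brain (edgeR quasi-likelihood test, Benjamini-Hochberg adjusted p under 0.05 and at least 2-fold), where 25.3% of all genes tested were called higher in muscle and 33.9% higher in brain. In sheep the counts were 6 and 1, against 19.2% and 28.5% of all genes. In goat 8 of the 9 passed the filter on low counts, 4 were called higher in muscle and 2 higher in brain, against 23.2% and 31.4%. Without sheep brain C the sheep count higher in muscle was again 6, and without goat muscle C, where CIDEC passed the filter and was called, the goat count was 5. The median log2 fold of the genes tested was -5.01 in cattle, -4.30 in sheep and -1.08 in goat, beside 0.09, 0.17 and 0.12 over all genes. Scaling by library totals alone moved those medians of all genes to 0.76, 1.11 and 0.86, and the share of called genes that were higher in brain from 57.3% to 75.9% in cattle, from 59.8% to 83.4% in sheep and from 57.5% to 77.8% in goat.

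**Figure D1:**
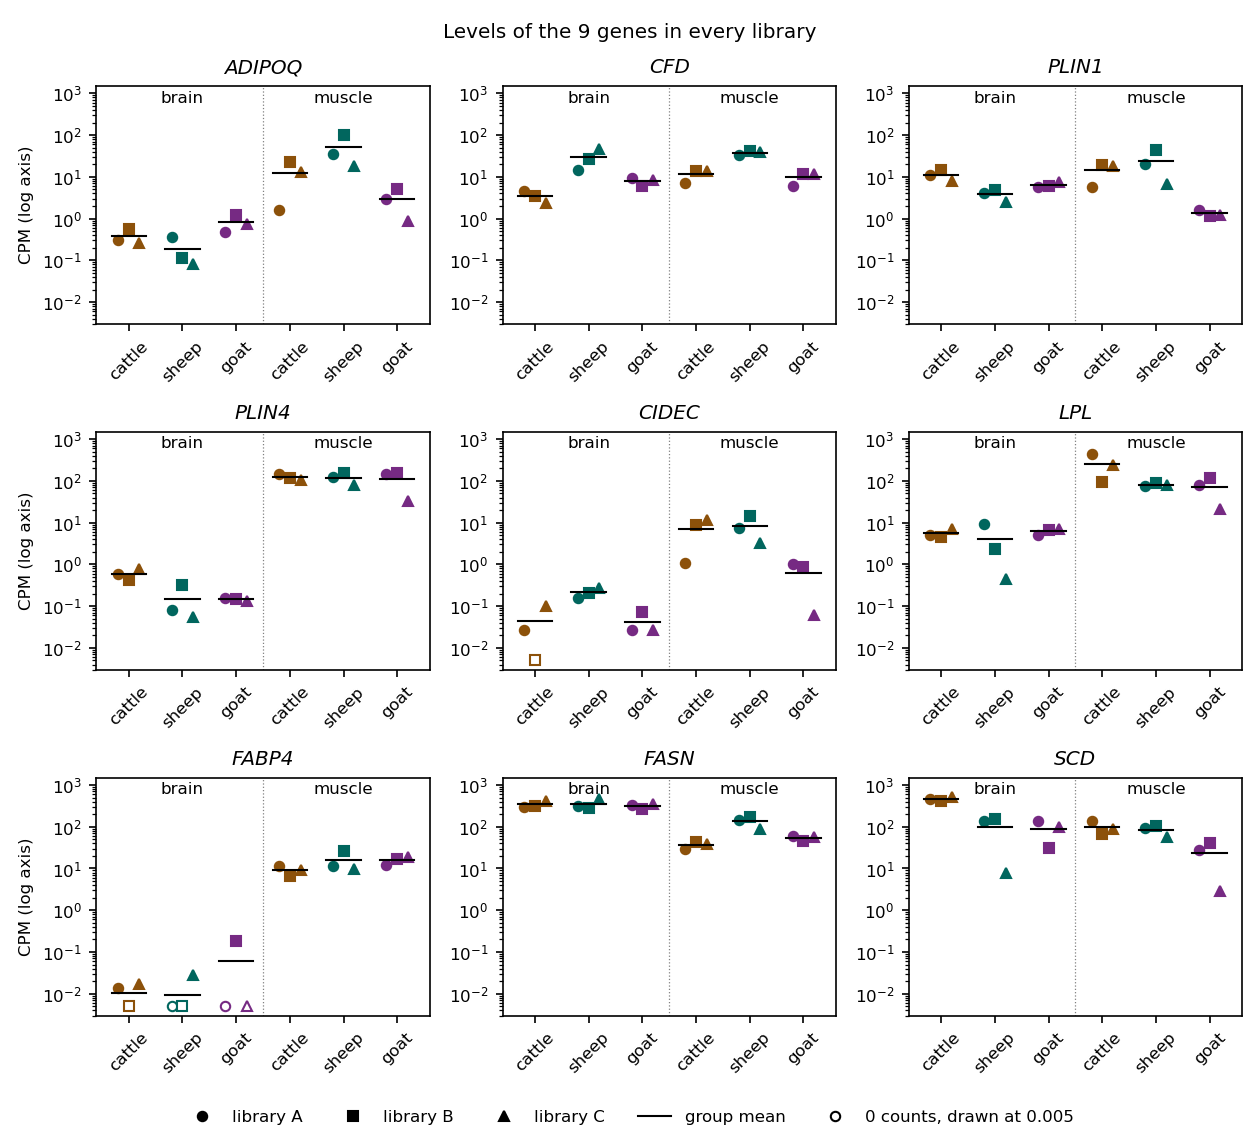
Levels of the 9 genes in each of the 18 libraries as CPM on a log axis, with 1 panel per gene, 1 point per library and a bar at the group mean; open points are libraries with 0 counts. PLIN4, LPL and FABP4 lay higher in every muscle library than in any brain library of the same species, FASN lay lower in every muscle library, and PLIN1 in goat was higher in brain (5.59 to 7.48 CPM) than in muscle (1.15 to 1.64 CPM).

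ADIPOQ (in cattle ENSBTAG00000052213, chromosome 1, 80416135 to 80427813 of ARS-UCD1.2, the gene body) had the widest spread of the secreted pair in muscle. Its levels in cattle muscle A, B and C were 1.59, 22.2 and 13.0 CPM. In sheep muscle they were 35.8, 102.5 and 18.6 CPM, and in goat muscle 2.91, 5.05 and 0.899 CPM. Thus cattle A lay far below the other cattle libraries, sheep B above the other sheep libraries, and all 3 goat libraries below the lowest sheep library in CPM. Brain levels were at most 0.575 CPM in cattle, 0.371 in sheep and 1.22 in goat, and the goat tissues overlapped. The log2 fold was -5.01 ± 0.89 (SE, n = 3 per group) in cattle and -8.09 ± 1.01 in sheep, with edgeR adjusted p of 0.000953 and 0.000888. In goat it was -1.87 ± 0.65 with an edgeR adjusted p of 0.0323. The goat call was lost with library totals alone (-1.16, adjusted p = 0.159 in edgeR) and in 4 of the 6 fits that left out 1 library, those without brain A, brain C, muscle A or muscle B. There the value ran from -2.34 to -1.30.

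CFD (ENSBTAG00000048122, chromosome 7, 43416200 to 43418803) encodes complement factor D, also called adipsin, a protease that adipocytes secrete. Cattle muscle had 6.94, 13.5 and 13.7 CPM and cattle brain 4.61, 3.41 and 2.33 CPM. The cattle tissues did not overlap, and the log2 fold was -1.72 ± 0.34 with an edgeR adjusted p of 0.0018. In sheep the muscle range of 34.0 to 41.3 CPM lay inside the brain range of 14.7 to 47.0 CPM, and in goat the ranges of 6.14 to 11.6 and 6.05 to 9.28 CPM overlapped. Neither of these was called, with log2 folds of -0.37 ± 0.44 and -0.28 ± 0.35 (edgeR adjusted p = 0.521 and 0.507); with library totals alone both signs turned. The cattle gene model shares 19 bases with a neighbouring model, and the counting is not stated to use strand.

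The droplet coat genes did not share a tissue pattern. PLIN1 (ENSBTAG00000015350, chromosome 21, 21078035 to 21091895) was measured in brain as well as muscle. Cattle muscle had 5.59, 19.7 and 18.5 CPM and cattle brain 11.2, 14.5 and 8.09 CPM, so the tissues overlapped and the log2 fold of -0.38 ± 0.43 was not called (edgeR adjusted p = 0.448). Sheep muscle had 20.1, 44.7 and 6.59 CPM, above the 4.19, 4.84 and 2.51 CPM of sheep brain. Goat went the other way, with 1.64, 1.15 and 1.2 CPM in muscle and 5.59, 6.13 and 7.48 CPM in brain. The log2 fold was -2.63 ± 0.71 in sheep (edgeR adjusted p = 0.0205) and 2.26 ± 0.36 in goat (edgeR adjusted p = 0.000557). The sheep call was lost without muscle B (-1.81, adjusted p = 0.0653), without brain A (-2.69, adjusted p = 0.0527) and with library totals alone (-1.66, adjusted p = 0.0951, all in edgeR).

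PLIN4 (ENSBTAG00000015690, chromosome 7, 19614545 to 19626137) encodes a perilipin that binds small droplets. Its mean muscle levels were 122.2, 119 and 110.1 CPM in cattle, sheep and goat. Cattle muscle had 144.8, 118.6 and 103.1 CPM, sheep muscle 124, 153.1 and 80.4 CPM, and goat muscle 143, 154.6 and 32.7 CPM. Goat C lay below every other muscle library. Brain levels stayed between 0.0551 and 0.782 CPM in the 9 brain libraries. The log2 folds were -7.67 ± 0.28, -9.55 ± 0.78 and -9.51 ± 0.74 in cattle, sheep and goat, with edgeR adjusted p of 1.08e-07, 0.000184 and 7.57e-06. Without goat muscle C the goat value was -9.97.

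CIDEC (ENSBTAG00000007969, chromosome 22, 16864534 to 16873831) followed ADIPOQ in its spread. Cattle muscle had 1.08, 8.72 and 11.3 CPM, sheep muscle 7.32, 14.6 and 3.23 CPM, and goat muscle 1.005, 0.850 and 0.0599 CPM. The goat muscle values rest on 19, 17 and 1 counts in A, B and C. Goat muscle C, with that 1 count, lay inside the goat brain range of 0.0264 to 0.0738 CPM. The gene did not pass the low-count filter in the goat tissue fit. Brain held 8 counts in all of cattle and 25 in all of sheep. The log2 fold was -7.27 ± 1.10 in cattle and -5.28 ± 0.70 in sheep, with edgeR adjusted p of 0.000364 and 0.00116.

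**Figure D2:**
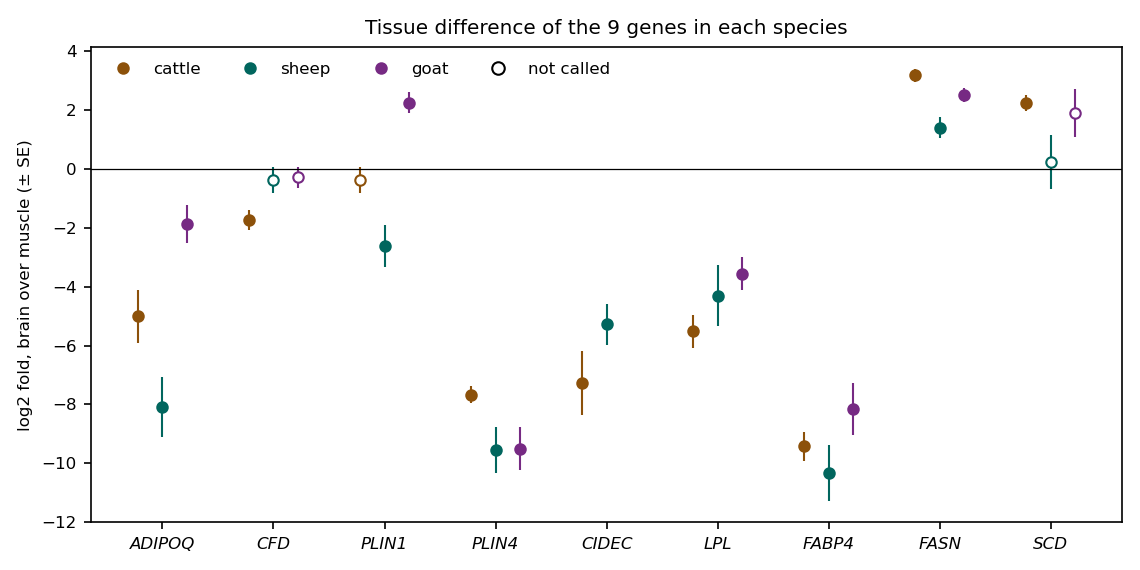
Log2 fold of brain over muscle for the 9 genes in each species, with bars of 1 standard error from edgeR; open points did not reach the call threshold, and goat CIDEC is missing because it was filtered out. PLIN4, LPL and FABP4 lie below 0 in all 3 species, FASN lies above 0 in all 3, and PLIN1 lies below 0 in sheep (-2.63) and above 0 in goat (2.26).

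The import genes were called higher in muscle in every species. LPL (ENSBTAG00000012855, chromosome 8, 66989665 to 67016690) had 438.7, 96.6 and 237.3 CPM in cattle muscle, 76.5, 88.9 and 77.7 CPM in sheep muscle and 78.7, 118.4 and 21.8 CPM in goat muscle. Cattle A was the highest library and goat C the lowest, and the sheep libraries differed by a factor of only 1.16. Brain levels ran from 4.58 to 7.24 CPM in cattle and 4.95 to 6.995 CPM in goat, while the 3 sheep brain libraries had 9.52, 2.34 and 0.441 CPM. The fold was -5.52 ± 0.56 for cattle, -4.30 ± 1.03 for sheep and -3.56 ± 0.56 for goat (log2), with edgeR adjusted p of 3.52e-05, 0.0125 and 0.000521. Without sheep brain C the sheep value was -3.78, and without goat muscle C the goat value was -4.03, both still called.

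FABP4 (ENSBTAG00000037526, chromosome 14, 44676542 to 44681059) encodes the fatty acid binding protein of adipocytes, which capillary endothelium also makes. Muscle had 11.7, 6.71 and 9.02 CPM in cattle, 11.6, 25.8 and 9.46 CPM in sheep and 11.9, 16.8 and 19.1 CPM in goat. Brain held 2 counts in all of cattle, 1 in all of sheep and 5 in goat, all 5 in brain B. The ratio of muscle to brain was 831.8 in cattle (95% counting interval 229.7 to 6878) and 1862 in sheep (333.7 to 73600), intervals that cover counting error only. The goat log2 fold was -8.15 ± 0.88 with an edgeR adjusted p of 5.51e-05. FABP4 lies in a cluster with PMP2, FABP9 and FABP12, whose internal exons have equal lengths (173 and 102 bases). The sheep and goat genes were therefore placed as the third of the cluster by order. How reads shared by such copies were counted is not given in the sources used here. The gene placed as PMP2 had 175, 176 and 217 counts in goat muscle, and 7 to 51 in cattle and sheep muscle. FABP9 had 18, 9 and 123 counts in goat muscle and at most 1 in cattle and sheep muscle. The bearing of these counts on goat FABP4 was not tested.

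Of the synthesis genes, FASN was called higher in brain in every species and SCD in cattle. FASN (ENSBTAG00000015980, chromosome 19, 50775674 to 50796012) builds saturated fatty acids. Brain had 302.7, 306.8 and 419.4 CPM in cattle, 321.9, 278.4 and 465.5 CPM in sheep and 322.4, 266.6 and 353.5 CPM in goat. Muscle had 29.8, 44.1 and 38.5 CPM in cattle, 145, 170.5 and 87.3 CPM in sheep and 60.1, 46.1 and 56.9 CPM in goat. In CPM, which are not corrected for length, the brain means were 343, 355.3 and 314.2 in cattle, sheep and goat. Per kb of exonic length they were 51.2, 57.65 and 31.9 CPM, lowest in goat. Sheep muscle lay above the muscle of both other species on either scale. The fold was 3.19 ± 0.22 for cattle, 1.40 ± 0.35 for sheep and 2.53 ± 0.24 for goat (log2), with edgeR adjusted p of 3.54e-06, 0.0157 and 2.62e-05. The sheep call was lost without muscle A (1.44, adjusted p = 0.0591) or muscle C (1.15, adjusted p = 0.0616, both in edgeR).

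SCD (ENSBTAG00000055207, chromosome 26, 21263727 to 21279185) places a double bond in the product. Brain had 453.3, 416.3 and 507.1 CPM in cattle, 138.8, 155.2 and 7.58 CPM in sheep and 140.1, 30.4 and 95.9 CPM in goat. Muscle had 135.4, 68.5 and 86.5 CPM in cattle, 93.7, 103.7 and 56.8 CPM in sheep and 27.6, 40.9 and 2.88 CPM in goat. The cattle tissues were apart, and in sheep and goat they overlapped, with sheep brain C and goat muscle C far below the others of their group. The log2 fold was 2.25 ± 0.27 in cattle (edgeR adjusted p = 8.29e-05), 0.25 ± 0.91 in sheep (edgeR adjusted p = 0.84) and 1.90 ± 0.82 in goat (edgeR adjusted p = 0.0713). Without sheep brain C the sheep value was 0.79 with an edgeR adjusted p of 0.0208, below the 2-fold needed for a call. Without goat muscle C the goat value was 1.35 with an edgeR adjusted p of 0.0653.

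Whether these tissue differences themselves differed between species was tested as an interaction over the 18 libraries. Between cattle and sheep 2 of the 9 genes were called, where 19.4% of all genes were; between cattle and goat 1, where 13.2% were; and between sheep and goat 2, where 7.6% were. Without sheep brain C the counts were 1 for cattle against sheep and 3 for sheep against goat, and without goat muscle C they were 1 for cattle against goat and 2 for sheep against goat. FASN had a brain-over-muscle fold larger in cattle than in sheep by 1.74 ± 0.40 on the log2 scale (edgeR adjusted p = 0.00633). ADIPOQ differed between sheep and goat by -6.18 ± 1.27 (edgeR adjusted p = 0.00964), and PLIN1 between sheep and goat by -4.81 ± 0.81 (edgeR adjusted p = 0.00303). With library totals alone the share of called genes with a positive difference moved from 46.7% to 30.9% for cattle against sheep and from 64.9% to 79.4% for sheep against goat. FASN, and ADIPOQ and PLIN1 between sheep and goat, stayed called in all 12 fits that left out 1 library of the species compared. PLIN1 also differed between cattle and sheep by 2.21 ± 0.76 and between cattle and goat by -2.60 ± 0.79 (edgeR adjusted p = 0.0496 and 0.0372), calls that were lost in 10 and 11 of the 12 such fits.

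Within muscle, ADIPOQ, PLIN1 and CIDEC moved together between the libraries of cattle and of sheep. In cattle all 3 were lowest in library A, where ADIPOQ was 13.9-fold, CIDEC 10.45-fold and PLIN1 3.52-fold below the highest library. CFD and FASN were lowest there too, with ranges of 1.98-fold and 1.48-fold. In sheep all 3 were highest in B and lowest in C, with ranges of 5.52-fold, 4.51-fold and 6.78-fold for ADIPOQ, CIDEC and PLIN1. PLIN4, FABP4, FASN and SCD had the same order of sheep libraries, with ranges of 1.90-fold, 2.72-fold, 1.95-fold and 1.83-fold, so that 7 of the 9 genes shared it. In goat ADIPOQ and CIDEC were lowest in C, where CIDEC had 1 count, and PLIN1 was lowest in B with a range of 1.42-fold. These are descriptions of 3 libraries per species and were not tested. In bulk samples, fewer adipocytes and less RNA per adipocyte cannot be told apart.

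**Figure D3:**
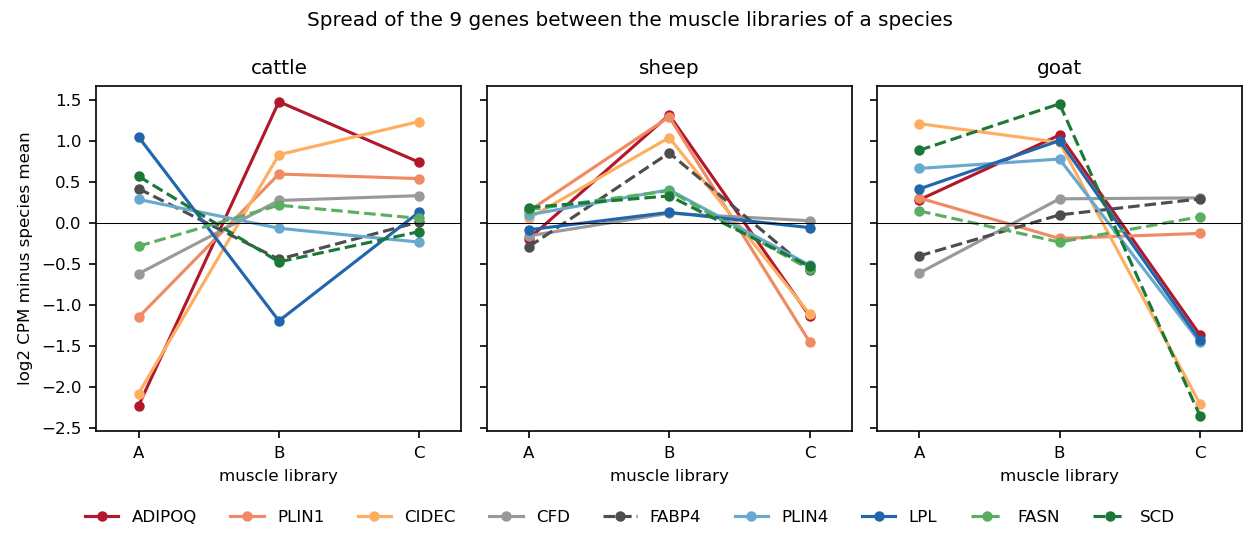
Log2 CPM of each gene in the muscle libraries minus its mean over the 3 libraries of that species; the lines only link the points of 1 gene, since the letters carry no order. ADIPOQ, PLIN1 and CIDEC are low together in cattle A and sheep C, while LPL and SCD are highest in cattle A and lie with ADIPOQ and CIDEC in goat C.

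The order of the muscle libraries seen in ADIPOQ was shared by PLIN1 and FASN in cattle and by PLIN4, LPL and SCD in goat. LPL in cattle ran opposite to ADIPOQ, with the highest level in A and the lowest in B, and so did SCD and FABP4, each with the same order of libraries. Over the 9 muscle libraries the root mean square distance, on the log2 scale, from the mean centred profile of ADIPOQ, PLIN1 and CIDEC was 1.34 for LPL, 1.16 for SCD, 1.15 for FABP4, 0.998 for CFD, 0.939 for PLIN4 and 0.904 for FASN. A gene with no spread would lie at 1.07, so FASN, PLIN4 and CFD lay nearer to that profile than such a gene, and LPL, SCD and FABP4 farther. The genes outside the list that came nearest, of 9275 compared, were PTN (0.382), which encodes the growth factor pleiotrophin, ABI3BP (0.466), LOX (0.507), the enzyme that cross-links collagen, PPL (0.538) and NHSL1 (0.545).

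Of the 12 adipocyte regulators and hormones listed, 11 had counts in cattle muscle, and 5 were lowest in library A, 5 in B and 1 was tied. Lowest in A were TRARG1, ADIG, LEP, THRSP and KLF15, and lowest in B were AQP7, CEBPA, CEBPB, ADIPOR1 and ADIPOR2. TRARG1, which encodes a partner of the insulin-responsive glucose carrier in fat, had 1.77, 12.8 and 15.5 CPM in cattle muscle, 2.29, 6.27 and 0.452 CPM in sheep muscle and 0.264, 0.150 and 0.240 CPM in goat muscle. ADIG, the adipogenin gene, was named only in cattle and had 0.120, 1.08 and 0.935 CPM. The leptin gene LEP, also named only in cattle, had 0, 0.0479 and 0.546 CPM. UCP1, the defining gene of brown fat, stayed at or below 0.288 CPM in the 9 muscle libraries and was at 0 in all 3 of sheep. CIDEA, of the same brown fat list, had 4.48, 3.24 and 4.83 CPM in cattle muscle. It was called higher there than in brain (-1.37 ± 0.25, edgeR adjusted p = 0.00114) but was not called in goat. Of the 2 genes of that list tested in cattle, 1 was called higher in muscle and 1 higher in brain.

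Genes of other cell types moved between these muscle libraries too. The summed level of fibroblast genes (8 of 8 measured in cattle, 5 of 8 in sheep and goat, none at 0) was 455.8, 1477 and 881.4 CPM in cattle A, B and C, 975.7, 1479 and 908.8 CPM in sheep, and 974.5, 917.8 and 709 CPM in goat. It was lowest in cattle A, sheep C and goat C, the libraries with the lowest ADIPOQ of their species, and its part in the result was not tested. The summed slow-fibre genes (7 of 7 measured in cattle, 6 of 7 in sheep and goat, none at 0 in muscle) were 60750, 20510 and 32380 CPM in cattle, 10050, 13970 and 12170 CPM in sheep, and 41350, 42560 and 13170 CPM in goat. In all 3 species their order over the libraries was the order of LPL, and their part in the LPL result was not tested. PLIN5, a perilipin of oxidative muscle, had that order in cattle, with 102.2, 25.5 and 69.0 CPM, and in goat, with 88.3, 127.2 and 67.9 CPM, but not in sheep, with 33.0, 40.8 and 48.1 CPM.

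**Figure D4:**
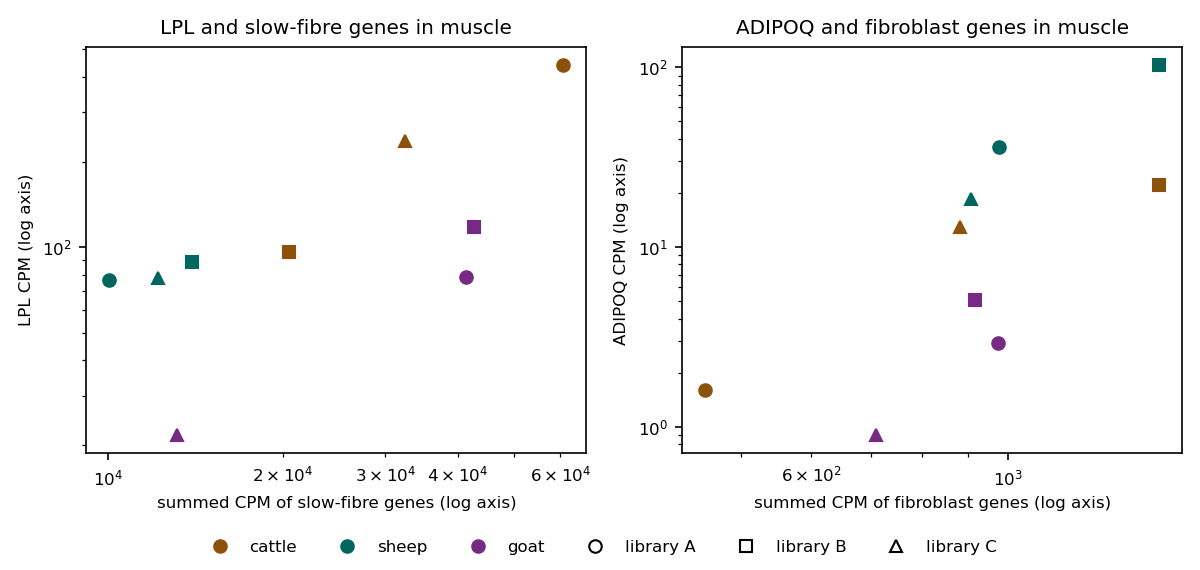
LPL against the summed slow-fibre genes, and ADIPOQ against the summed fibroblast genes, in the 9 muscle libraries, all as CPM on log axes; sums are comparable only within a species because different numbers of marker genes were measured. LPL is highest in cattle A (438.7 CPM), which has the highest slow-fibre sum (60750 CPM), and ADIPOQ is highest within cattle and sheep in library B, which has the highest fibroblast sum there.

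Species were compared within a tissue on the matched genes, with the exonic length of each species' gene model as an offset, so these folds are per length. The models differ: ADIPOQ spans 1002 exonic bases in cattle, 793 in sheep and 4995 in goat, PLIN1 3220, 1686 and 4830, SCD 5346, 1973 and 1080, and FABP4 754, 880 and 399. In muscle 2 of the 9 genes were called between cattle and sheep, where 38% of all genes were, 4 between cattle and goat, where 39.7% were, and 6 between sheep and goat, where 27.7% were. The median log2 fold over all genes was -0.48, -0.34 and 0.17 in the 3 comparisons, and each value below is to be read relative to it. With scaling on length-corrected counts those medians became 0.01, -0.07 and -0.05, and the share of called genes higher in the first species changed from 22.1% to 46.3%, from 29.8% to 43.1% and from 57.7% to 42.3%. The members called in muscle were the same in number under that scaling (2, 4 and 6), and no sign among those called turned. Without goat muscle C the counts were 3 for cattle against goat and 4 for sheep against goat.

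Goat muscle was low in ADIPOQ, PLIN1 and CIDEC per length. ADIPOQ was higher in cattle than in goat by 4.64 ± 0.995 and in sheep than in goat by 6.77 ± 1.09 on the log2 scale (edgeR adjusted p = 0.00285 and 0.000961). PLIN1 was higher by 4.33 ± 0.73 and 5.66 ± 0.76 (edgeR adjusted p = 0.000668 and 0.00037). CIDEC was higher by 2.7 ± 0.94 and 2.92 ± 0.94 (edgeR adjusted p = 0.0324 and 0.0307), and each of these calls was lost in 5 of the 6 fits that left out 1 library. Without the length offset the ADIPOQ values were 2.32 (edgeR adjusted p = 0.0537, not called) and 4.12 (edgeR adjusted p = 0.00853). PLIN1 and CIDEC stayed called there, at 3.74 and 4.14, and at 3.72 and 3.66. The sheep and goat ADIPOQ models were matched by gene order, and each shares only 1 exon length with the cattle model. Between cattle and sheep ADIPOQ differed by -2.13 ± 0.87 (edgeR adjusted p = 0.0611), PLIN1 by -1.33 ± 0.61 (edgeR adjusted p = 0.0896) and CIDEC by -0.23 ± 0.79 (edgeR adjusted p = 0.827), none of them called. ADIPOQ was called there without cattle B (-2.85), without sheep C (-2.53) and in the fit over 18 libraries (-2.17). Over the 6 fits that left out 1 library the value ran from -2.85 to -1.19. With no length offset it was -1.79 (edgeR adjusted p = 0.11). With scaling on length-corrected counts it was -1.64 (edgeR adjusted p = 0.139), and neither was called.

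Sheep muscle was high in CFD and FASN. CFD was lower in cattle than in sheep by -1.63 ± 0.31 (edgeR adjusted p = 0.00148) and higher in sheep than in goat by 1.90 ± 0.31 (edgeR adjusted p = 0.00109). FASN was lower in cattle than in sheep by -1.84 ± 0.26 (edgeR adjusted p = 0.000257) and higher in sheep than in goat by 1.85 ± 0.26 (edgeR adjusted p = 0.000408), and cattle and goat differed by 0.02 ± 0.25. All 4 stayed called without the length offset. FABP4 was higher in goat per length, by -1.41 ± 0.39 in cattle against goat and -1.19 ± 0.39 in sheep against goat (edgeR adjusted p = 0.0112 and 0.0322). Without the length offset these values were -0.49 and -0.04 (edgeR adjusted p = 0.3 and 0.938), and neither was called. The FABP4 call in sheep against goat was also lost in 4 of the 6 fits that left out 1 library. It was lost in the fit over 18 libraries too (-1.17, edgeR adjusted p = 0.124).

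In the main fit LPL, PLIN4 and SCD were called in no pair of species per length. LPL was 0.88 ± 0.59 between cattle and sheep and 1.21 ± 0.60 between cattle and goat (edgeR adjusted p = 0.233 and 0.11). Without the length offset these became 1.999 and 2.14 and were called (edgeR adjusted p = 0.0204 and 0.0141). Both were also called per length with DESeq2, at 1.37 and 1.56 (DESeq2 adjusted p = 0.0305 and 0.0114). Cattle against goat was called in 2 of the 6 fits that left out 1 library. These were without cattle B (1.62, edgeR adjusted p = 0.0366) and without goat B (1.755, edgeR adjusted p = 0.0499). SCD between cattle and goat was 0.03 ± 0.66 per length and 2.33 without the offset, where it was called (edgeR adjusted p = 0.0168). PLIN4 values were -0.13 ± 0.47, 0.33 ± 0.47 and 0.46 ± 0.47 in the 3 pairs.

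**Figure D5:**
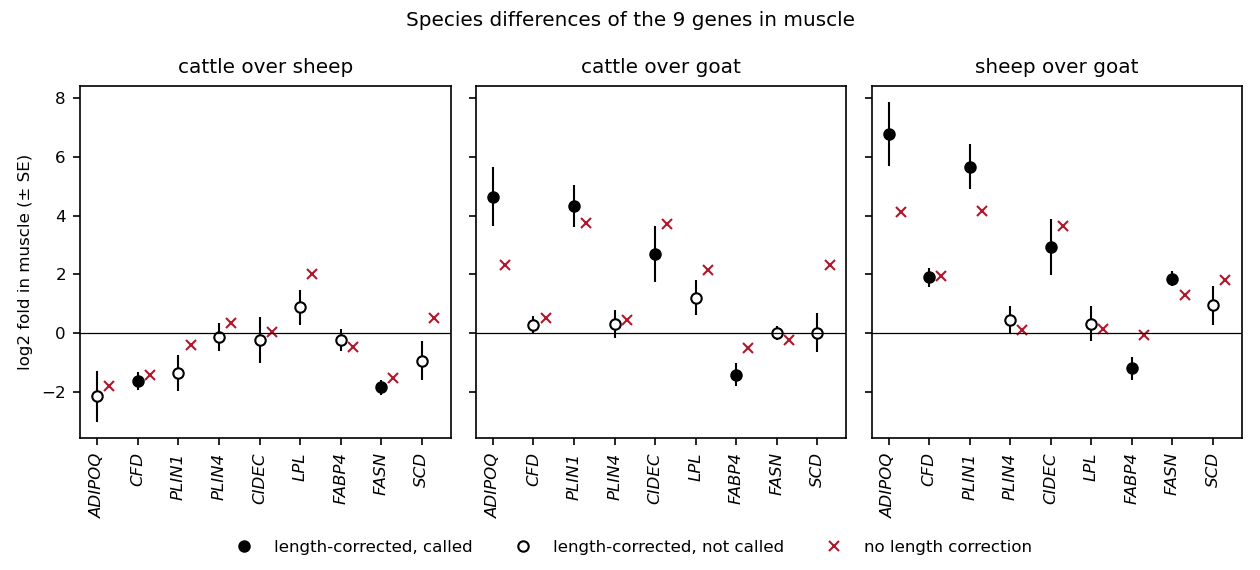
Log2 folds between species in muscle for the 9 genes, with circles for the length-corrected fit (bars of 1 standard error from edgeR, filled where called) and crosses for the fit with no length correction. ADIPOQ, PLIN1 and CIDEC lie above 0 in both comparisons with goat, and the cross for SCD in cattle over goat (2.33) lies far from its circle (0.03).

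In brain 7 of the 9 genes passed the filter, and FABP4 and CIDEC did not. CFD was called between cattle and sheep (-3.11 ± 0.48, edgeR adjusted p = 0.00212), the 1 member of 7, where 28% of all genes were called. PLIN1 and PLIN4 were called between cattle and goat, where 21.7% of all genes were, at 1.70 ± 0.36 and 2.17 ± 0.65 (edgeR adjusted p = 0.00823 and 0.0382). PLIN4 lost its call in each of the 6 fits that left out 1 library, and PLIN1 lost it without the length offset (1.12, edgeR adjusted p = 0.059). CFD was the 1 member called between sheep and goat, at 1.95 ± 0.46 (edgeR adjusted p = 0.0204), where 14.3% of all genes were, and the call was lost without goat brain A, B or C. Without sheep brain C the counts were 1 for cattle against sheep and 2 for sheep against goat. The medians over all genes in these comparisons were -0.48, -0.30 and 0.15. With scaling on length-corrected counts the share of called genes higher in the first species changed from 11.6% to 31.5%, from 27.0% to 47.9% and from 79.1% to 73.0%, and with no length offset the last was 51.8%.

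In the main fit FASN and SCD were called between no pair of species in brain. FASN values were -0.17 ± 0.29, 0.68 ± 0.29 and 0.86 ± 0.29 for cattle against sheep, cattle against goat and sheep against goat (edgeR adjusted p = 0.695, 0.114 and 0.0758). With scaling on length-corrected counts the cattle against goat value was 1.02 and was called (edgeR adjusted p = 0.0324). SCD values were 0.95 ± 0.86, 0.35 ± 0.85 and -0.60 ± 0.85 (edgeR adjusted p = 0.446, 0.813 and 0.691), and without sheep brain C the first was 0.46 and the third -0.09. With no length offset the SCD values were 2.39, 2.66 and 0.27 (edgeR adjusted p = 0.078, 0.0758 and 0.87), and none was called. The genes nearest to the FASN profile over the 9 brain libraries, of 10457 compared, were INCENP (root mean square distance 0.069 on the log2 scale), TRAIP (0.07), STMN1 (0.073), TMEFF2 (0.084) and BCNT2 (0.085), where a gene with no spread lay at 0.249.

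Oligodendrocyte genes, the genes of the cells that make myelin, also differed between the brain libraries, and their part in the SCD result was not tested. All 10 genes of that list were measured in cattle and 9 in sheep and goat, and none was at 0 in brain. Their sum was 2839, 2915 and 1973 CPM in cattle brain A, B and C, 3705, 3649 and 4083 CPM in sheep brain, and 26830, 5856 and 5485 CPM in goat brain. In sheep MBP alone made up most of the sum in each library. The sum did not follow SCD in sheep, where it was highest in C and SCD was lowest there. With MBP taken off, what was left of the sheep sum was lowest in C, as SCD was. In goat the full sum and SCD were highest in A, while SCD was lowest in B and the sum in C. In sheep brain C, where SCD was lowest, UGT8 had 1.38 CPM against 41.7 and 37.2 CPM, while MBP had 3682 CPM against 2494 and 2341 CPM. In goat brain A, where SCD was highest, MBP had 17540 CPM against 2560 and 2859 CPM. FASN in those libraries stood at 465.5 CPM in sheep brain C, the highest of its group, and 322.4 CPM in goat brain A, between the others.

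Around FASN and SCD, the other genes of fatty acid synthesis were called higher in brain for 9 of the 13 tested in cattle, 4 of 12 in sheep and 9 of 12 in goat, with medians of 2.46, 1.35 and 2.85 on the log2 scale. Over all genes 33.9%, 28.5% and 31.4% were called higher in brain, so the sheep count lay near that share. SCD5, a second desaturase, was higher in brain by 6.26 ± 0.38 in sheep and 6.51 ± 0.48 in goat (edgeR adjusted p = 7.3e-05 and 5.41e-06). ACLY, which makes cytosolic acetyl-CoA, was higher in brain in cattle (4.07 ± 0.16) and goat (3.34 ± 0.25, edgeR adjusted p = 1.38e-07 and 5.26e-06). ACACB, the carboxylase isozyme whose product restrains fatty acid oxidation, was called the other way in all 3 species, at -6.30 ± 0.22, -5.83 ± 0.34 and -7.16 ± 0.42. ACSS2 was also higher in muscle in sheep (-1.95 ± 0.30) and goat (-1.96 ± 0.28), and in cattle SREBF1 (-1.99 ± 0.29) and MLXIPL (-1.17 ± 0.43), which encode lipogenic transcription factors.

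Genes of lipolysis and other droplet proteins were called higher in muscle for 9 of 11 in cattle, 2 of 8 in sheep and 4 of 8 in goat, and higher in brain for 1, 2 and 1. Over all genes 25.3%, 19.2% and 23.2% were called higher in muscle, and the sheep count lay near that share. BSCL2, which encodes the droplet assembly protein seipin, was higher in brain throughout, by 3.67 ± 0.16 in cattle, 2.95 ± 0.27 in sheep and 3.57 ± 0.34 in goat. PLIN3 was higher in sheep brain by 1.84 ± 0.34 (edgeR adjusted p = 0.00395). PLIN2, the perilipin found in most cells, was higher in muscle by -3.81 ± 0.21 in cattle and -2.66 ± 0.31 in sheep, and LIPE, the hormone-sensitive lipase gene, by -2.98 ± 0.22 in cattle. PLIN5 and PNPLA2 were higher in goat muscle, by -3.76 ± 0.40 and -2.0 ± 0.24.

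Of adipocyte regulators and hormones 5 of 8 were called higher in muscle in cattle, 2 of 4 in sheep and 3 of 3 in goat, with none higher in brain, where 25.3%, 19.2% and 23.2% of all genes were called higher in muscle. With so few genes a list, the counts below are to be read against those same shares. AQP7, the glycerol channel, was higher in muscle by -6.65 ± 0.27 in cattle and -5.10 ± 0.74 in goat, and the adiponectin receptor gene ADIPOR2 by -4.38 ± 0.25, -2.71 ± 0.39 and -1.94 ± 0.26 in cattle, sheep and goat. Of triglyceride synthesis genes 4 of 6, 2 of 6 and 3 of 6 were called higher in muscle, led by GPD1 at -4.50 ± 0.23, -4.82 ± 0.67 and -5.27 ± 0.27, and MOGAT1 was higher in brain in sheep (4.82 ± 0.96) and goat (5.05 ± 0.86). Of lipase partners and fat uptake genes 3 of 8 were called higher in muscle in cattle and 3 of 6 in goat, and the 6 tested in sheep had edgeR adjusted p of 0.0514 or more. Among them CD36, a fatty acid carrier, was higher in cattle muscle by -8.97 ± 0.89, and ANGPTL4, an inhibitor of lipoprotein lipase, by -4.54 ± 0.20 in cattle and -3.60 ± 0.48 in goat.

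The same lists were compared between species in muscle. Of the droplet and lipolysis genes 3 of 9 were higher in cattle than in sheep, 5 of 9 higher in cattle than in goat and 2 of 9 higher in sheep than in goat, with none called the other way. Over all genes those shares were 8.4%, 11.8% and 15.9%, so the last count lay near the share of all genes. LIPE was higher in cattle by 2.003 ± 0.34 against sheep and 2.59 ± 0.35 against goat, and PNPLA2, the adipose triglyceride lipase gene, was higher in cattle and in sheep than in goat by 2.27 ± 0.32 and 1.87 ± 0.32. TRARG1 was higher than in goat by 5.81 ± 1.13 in cattle and 6.47 ± 1.16 in sheep (edgeR adjusted p = 0.00162 and 0.00169). Of synthesis genes 6 of 12 were higher in sheep than in cattle, where 29.6% of all genes were, and 1 was higher in cattle. ACACB differed between cattle and sheep by 2.77 ± 0.20 and FADS2 by -3.41 ± 0.26. Of lipase partners and fat uptake genes 2 of 6 were higher in goat than in cattle and 3 of 6 higher in goat than in sheep, where 27.9% and 11.7% of all genes were. FABP5 and FABP3, binding proteins of other cells and of muscle fibres, were higher in goat than in cattle by -4.05 ± 0.43 and -2.89 ± 0.49.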

How the data were processed

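The authors deposited 1 file per library with whole-number read counts per gene and the exonic length of each gene model (a value in bases, of unit other), per the file headers. Per the submitters' processing notes the tools were Trimmomatic 0.39, STAR 2.7.6 and featureCounts, and the build named is ARS-UCD1.2. For the sheep and goat builds and for the strand setting, the sources used here give nothing. Counts were used as deposited, with 27607, 26478 and 27271 gene models in cattle, sheep and goat. Of the cattle models 20139 were named by overlap with RefSeq positions (at least 0.5 of the union), and 13934 were matched in the 3 species by shared neighbouring exon lengths, then by gene order with at least 1 shared exon length (held-out matches gave the same partner in 99.7% to 99.9%). All 9 members were matched, 3 of them (ADIPOQ, PLIN4 and FABP4) only by order.

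Tests used edgeR 4.0.16 in R 4.3.3 (quasi-likelihood, robust, TMM, filterByExpr), within a species between tissues and on matched genes with a length offset between species, with p-values adjusted over all genes tested. A gene was called when its adjusted p was under 0.05 and its log2 fold was 1 or more in size. The tissue fit in cattle and the muscle fit of cattle against goat were tested on simulated counts, both without the length offset. The fits with the offset and the interaction were not. DESeq2 1.42.0 and other scalings, filters, matches and left-out libraries were run as alternatives. The members and the lists of other genes were chosen with earlier results of these data known. All members are named. Of each other list, up to 3 called genes of lowest adjusted p and genes called against most of their list could be named for a comparison, and likeness is the smallest root mean square distance of log2 CPM (prior count 1, mean CPM at least 1) centred within species. The marker genes and TRARG1, LEP, ADIG, UCP1 and PLIN5 levels were singled out after their values were seen. The values of 1 marker gene are not reported here.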

Additional observations from a re-analysis of the deposited data

Results flagged for a closer look

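The tissue difference of 3 members differed between species by the interaction test over all 18 libraries (edgeR quasi-likelihood, Benjamini-Hochberg adjusted p over all genes). Called were 2, 1 and 2 of the 9 members for cattle against sheep, cattle against goat and sheep against goat. Over all genes the shares were 19.4%, 13.2% and 7.6%. Values are differences of log2 brain-over-muscle folds. For PLIN1 the fold in cattle exceeded that in sheep by 2.21, and in cattle against goat the difference was -2.60. These calls were lost in 10 and 11 of the 12 fits that left out 1 library. The first was also lost with RLE size factors, library totals alone, no filter and the stricter match. In sheep against goat the PLIN1 difference was -4.81. Fitted species by species, the PLIN1 fold was -0.38 (cattle), -2.63 (sheep) and 2.26 (goat). For FASN the fold in cattle exceeded that in sheep by 1.74. For ADIPOQ the difference between sheep and goat was -6.18.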

How the results depend on the processing

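No called member changed sign under any alternative run. Of 915 member values under alternatives 828 stayed on the same side of the threshold, 68 lost a call and 19 gained one. Of 68 member results 48 kept their side in every alternative, and 36 values changed sign with no call in either fit. For brain between species this tally holds only FASN, SCD and members called in the main fit. For the interaction it holds only members called there. Calls that other members gained in those comparisons are therefore left out, and the tally understates gains. Of the counts of members called in muscle, cattle against sheep went from 2 to 4 in the fit over all 18 libraries, and cattle against goat from 4 to 2 under the stricter match, which tests fewer members. In brain, cattle against sheep went from 1 to 3 with DESeq2, 3 with no length offset, 3 with scaling on length-corrected counts and 2 in the fit over all 18 libraries, and cattle against goat from 2 to 1 with no length offset and 1 under the stricter match. The interaction count for cattle against sheep went from 2 to 1 with RLE size factors, 1 with no filter and 1 under the stricter match, and for sheep against goat from 2 to 1 under the stricter match; otherwise the cause was not tested. Scaling on length-corrected counts and the left-out libraries of the interaction were chosen after seeing the data.

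Leaving out 1 library gave 6 to 6 members higher in muscle in cattle, 5 to 6 in sheep and 3 to 5 in goat. It gave 2 to 4, 3 to 4 and 4 to 5 called in muscle for cattle against sheep, cattle against goat and sheep against goat, and 1 to 2, 1 to 1 and 0 to 2 in brain. The interaction gave 1 to 3, 0 to 2 and 2 to 3. The labels do not say whether the letters pair the samples, and such correlations cannot settle it. Deviations of same-lettered brain and muscle libraries correlated between -0.174 and 0.132. Same-lettered values were 0.046, 0.042 and 0.034 in sheep, where all unlike-lettered values were negative, and of both signs in cattle and goat. With a replicate block the tissue counts were 6, 6 and 3, the muscle counts 3, 3 and 6 and the brain counts 1, 1 and 1, where the main count for cattle against goat was 2. Brain levels of FABP4 and CIDEC, and goat muscle levels of CIDEC, rest on a few counts, which limits their folds.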
